A study of Mus musculus with 6 samples.

Results

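Mast cells, basophils and eosinophils are granule-filled cells of the myeloid lineage, and 10 genes that mark them were followed here among the 36083 genes of the table. They are Cpa3 and Cma1 (mast cell proteases), Mcpt8 and Prss34 (basophil proteases), Ms4a2 and Fcer1a (subunits of the high-affinity IgE receptor), Hdc (histamine synthesis), Prg2 and Epx (eosinophil granule proteins) and Il5ra (the interleukin-5 receptor). The genes were listed by name, and their rows were found by matching Ensembl identifiers to mouse symbols. All 10 had a row, and 9 reached the minimum mean of 1 over the 6 libraries that was asked for testing. Il5ra did not.

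The libraries came from a mouse model of blast crisis chronic myeloid leukemia (bcCML), in which BCR-ABL and NUP98-HOXA9 drive an aggressive undifferentiated disease. KLS cells, a progenitor-rich bone marrow fraction, were taken from donors on the B6 background that were WT or Sdc1-/-, carrying an allele of the cell surface proteoglycan Syndecan-1 in which the signal peptide is disrupted. Both groups received the same 2 retroviral oncogenes, only double-positive cells were transplanted, and the labels name NSG mice as recipients, whereas the general methods describe irradiated CD45.1 mice. Lin- leukemic cells were sorted from the spleens, with both cohorts killed at one time, and 3 libraries were made per group. The paper's gating for primary bcCML takes cells positive for the markers of both oncogene vectors before the Lin- step. The lineage antibodies were directed at T, B, erythroid, granulocytic and CD11b-positive cells. None was specific to mast cells, basophils or eosinophils, but any of these cells that carry CD11b or Gr1 would be removed. How many were removed is not known. NSG hosts lack T, B and NK cells but keep their own myeloid cells, which do not carry the 2 vectors. The sources give 2 different age ranges for the mice, and they do not settle whether the libraries of a group came from separate mice, since a legend calls the WT libraries technical replicates. The p-values therefore measure the spread between these libraries, which may be technical only.

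These lineages leave the bone marrow progenitor pool along neighbouring routes in which the factors Gata1 and Gata2 are active. Mast cells and basophils carry the high-affinity IgE receptor, a complex of an IgE-binding alpha chain (Fcer1a), a signal-amplifying beta chain (Ms4a2) and the shared gamma chain (Fcer1g). Cross-linking of bound IgE releases histamine and proteases from granules, where positively charged proteins are packed on the proteoglycan serglycin. Eosinophil granules hold instead major basic protein (Prg2) and eosinophil peroxidase (Epx). Some of these genes are also transcribed in immature myeloid progenitors, so their RNA alone does not name a mature cell.

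The stretches of DNA next to the gene starts are shown first because the same 6-letter word, AGATAA, which GATA factors can bind, occurs in several of them. RefSeq promoter windows (250 bases before to 50 after the start, GRCm38.p6) were matched for 9 of the 10 genes, and Prg2 was not matched. AGATAA, read on both strands, was present in 5 of those 9 windows and in 11.2% of all 32851 windows. The 120 bases before the start of these 5 genes are printed below 5′ to 3′ on the strand of the gene, with AGATAA or its complement TTATCT in capitals.
Cpa3, chr3:20242182-20242301, minus strand: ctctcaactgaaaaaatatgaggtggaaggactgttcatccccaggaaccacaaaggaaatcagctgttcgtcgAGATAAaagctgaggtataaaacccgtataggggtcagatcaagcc
Prss34, chr17:25298274-25298393, plus strand: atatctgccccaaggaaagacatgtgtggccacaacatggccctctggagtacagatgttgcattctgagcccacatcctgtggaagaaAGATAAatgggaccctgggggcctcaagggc
Ms4a2, chr19:11623720-11623839, minus strand: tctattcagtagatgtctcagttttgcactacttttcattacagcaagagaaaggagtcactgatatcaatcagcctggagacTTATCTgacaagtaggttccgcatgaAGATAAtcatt
Fcer1a, chr1:173227230-173227349, minus strand: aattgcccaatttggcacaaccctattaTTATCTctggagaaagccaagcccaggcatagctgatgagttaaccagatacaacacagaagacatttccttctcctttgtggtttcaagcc
Il5ra, chr6:106749038-106749157, minus strand: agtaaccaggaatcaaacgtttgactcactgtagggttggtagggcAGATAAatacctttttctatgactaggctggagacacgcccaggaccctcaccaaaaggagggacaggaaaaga
Ms4a2 held the word at 3 places, 224, 37 and 11 bases before the start. The word began 31 bases before the start in Prss34, 46 in Cpa3, 74 in Il5ra and 92 in Fcer1a. A match of this kind is a description of the letters and not of a bound site.

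Of the other words searched, on both strands, TATAAA was in the windows of Cpa3, Epx and Fcer1a and in 13.6% of all windows. GAGGAA, a core read by ETS factors such as the product of Spi1, was in those of Fcer1a, Il5ra and Mcpt8 and in 28.3% of all. TGATAA, a further word that GATA factors can bind, was in 0 of the 9 windows and in 9.05% of all. TTCNNNGAA, the pattern of STAT factors, was in 0 of the 9 and in 8.3% of all. The words were chosen with the expression values known.

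Before the members, the targeted gene was read. Sdc1 stood at 1.75, 1.21 and 1.51 in the WT libraries, against 3.85, 3.8 and 4.12 in those labelled Sdc1-/-, so its RNA was higher in the latter (log2 fold change 0.99, SE 0.0929, adjusted p = 0.00012). A value summed over the gene does not show the disrupted part of the allele, so it is no check of the label, and libraries are named throughout as labelled. The Y-linked gene Eif2s3y was at most 0.0116 in any WT library and 43.2 to 49.8 in those labelled Sdc1-/-, and Ddx3y at most 0.0158 against 12.1 to 14.1, so the sex of the cells and the genotype cannot be told apart. Values are kallisto TPM summed per gene and rescaled between libraries by the authors, called signal here, and they are scaled for transcript length, so that levels of different genes can be set side by side. How many reads lie behind each library is not known. In 12155 genes tested with limma on log2(signal + 1), 3810 were lower (31.3%) and 3564 higher (29.3%) in the libraries labelled Sdc1-/-. Lower genes made up 51.7% of the calls, or 30.9% when each library was scaled to a sum of 1000000, which moved the median of all genes from -0.01 to 0.12 on the log2 scale.

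All 9 members tested were lower in the libraries labelled Sdc1-/-, against 31.3% of all genes tested, and in all 9 every library labelled Sdc1-/- lay below every library labelled WT, against 34.2%. In 7 of the 9 the log2 fold change was -1 or less as well, against 2.92% of all genes tested. The median log2 fold change of the 9 was -1.38, beside -0.01 over all genes tested. Fcer1a passed the minimum mean only through the libraries labelled WT, so its inclusion among the 9 is not independent of its direction. The levels in the WT libraries ran in the order Prg2, Hdc, Prss34, Mcpt8, Ms4a2, Cpa3, Epx, Cma1, Fcer1a and Il5ra, in which Prss34 and Mcpt8 did not differ beyond their spread. Among the libraries labelled Sdc1-/- the order was Prg2, Hdc, Mcpt8, Prss34, Ms4a2, Cpa3, Epx, Cma1, Fcer1a and Il5ra, and there the values of Hdc, Mcpt8 and Prss34 lay between 50.5 and 58.3 and overlapped, as did those of Cpa3 and Epx. In bulk RNA, fewer cells of a type and less RNA per cell cannot be told apart.

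**Figure D1:**
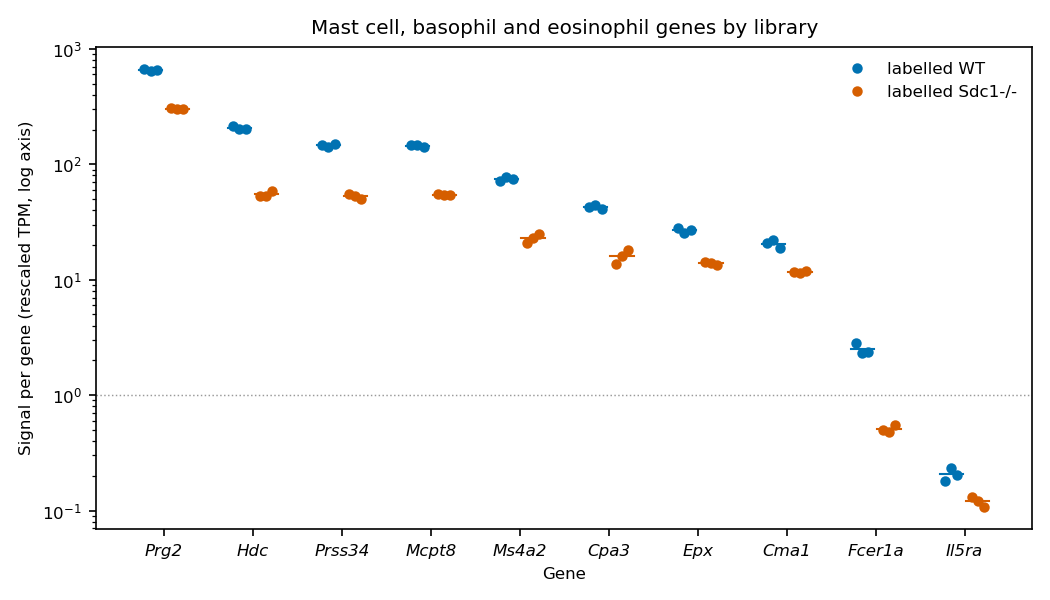
Signal of the 10 genes on a log axis in each library, in order of their WT mean. Points are libraries, short lines are group means and the dotted line is the minimum mean of 1. Every library labelled Sdc1-/- lies below every library labelled WT in each gene, with Prg2 at the top (301.4 to 670.3) and Il5ra at the bottom (0.107 to 0.233).

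Of the mast cell proteases, Cpa3 encodes carboxypeptidase A3, which is made from the progenitor stage on. Cpa3 (chr3:20215620-20242181, GRCm38, minus strand) stood at 42.8, 44.7 and 40.9 in the WT libraries, against 13.7, 15.9 and 18.1 in those labelled Sdc1-/-. Its mean fell 2.69-fold, from 42.8 ± 1.88 to 15.9 ± 2.19 (SD, n = 3 each), with a log2 fold change of -1.38 (SE 0.0922, adjusted p = 2.4e-05). The libraries labelled Sdc1-/- were more widely spread, relative to their mean, in this gene than in Mcpt8, Prg2, Epx or Cma1, but none came near the WT range. Cma1 encodes a chymase, a protease stored in mature mast cell granules. Cma1 (chr14:55941451-55944675, minus strand) had values of 21.0, 21.9 and 18.7 against 11.6, 11.4 and 12.0, a 1.76-fold difference (log2 fold change -0.77, SE 0.0620, adjusted p = 5.9e-05). It had the smallest log2 fold change of the 9, and 10.6% of its 31-base words are shared with another gene model, Gm48934, so that reads could be split between them.

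The ratio of Cpa3 to Cma1 within a library was 2.04, 2.04 and 2.19 in the WT libraries, against 1.19, 1.39 and 1.51 in those labelled Sdc1-/-, so the proteases did not keep their proportion. Of the other mast cell proteases of the list, Mcpt2 alone passed the minimum mean. Of the 10 proteases listed, 3 passed the minimum mean and 3 were lower, Mcpt2 being the remaining gene with 3.14 ± 0.397 against 1.82 ± 0.0849 (SD, n = 3 each) and an adjusted p of 0.0012. Mcpt1 had means of 0.856 and 0.802, whose libraries overlapped. Tpsab1, Tpsb2, Tpsg1 and Mcpt9, the tryptases and a chymase-like protease of tissue mast cells, had group means of 0.12 or less, and Mrgprb2, the receptor that marks connective tissue mast cells, was listed at 0 in every library. The chymase genes Mcpt4 (means of 0.239 and 0.0666) and Cma2 (0.0891 and 0.0433), named after their values were seen, were low as well. Low levels were thus seen for these tryptases, Mcpt9, Mcpt4, Cma2 and Mrgprb2, and not for Cpa3 or Cma1.

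Mcpt8 and Prss34 encode mast cell protease 8 and mast cell protease 11, which despite their names are made mainly by basophils. Mcpt8 (chr14:56082166-56085273, minus strand) stood at 146.1, 146.9 and 141.1 in the WT libraries, against 55.1, 54.4 and 53.7 in those labelled Sdc1-/-. It was 2.66-fold lower (log2 fold change -1.39, SE 0.0304, adjusted p = 5.4e-07), with the lowest adjusted p of the members. Prss34 (chr17:25298394-25300165, plus strand) had values of 148.1, 141.7 and 148.9 against 55, 53.1 and 50.5, and was 2.77-fold lower (log2 fold change -1.45, SE 0.0409, adjusted p = 9.7e-07). These genes lie on different chromosomes and share no 31-base word with another gene. Their ratio within a library was nevertheless close to 1 in all 6, at 0.947 to 1.04 in the libraries labelled WT and 1.00 to 1.06 in those labelled Sdc1-/-, and the groups overlapped.

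Of the 12 basophil genes listed, 10 were tested, 9 were lower, 0 were higher and the median log2 fold change was -1.21, beside -0.01 over all genes tested. Without the members, 5 of 6 were lower, against 31.3% of all genes tested. Cd200r3, an activating surface receptor of basophils and mast cells, fell from 7.42 ± 0.174 to 1.93 ± 0.552 (SD, n = 3 each; adjusted p = 6.4e-05). The chemokine gene Ccl3 fell from 37.3 ± 1.67 to 16.0 ± 1.00 (adjusted p = 6.5e-06). Il4, the cytokine most often tied to basophils, and Il6 are named after their values were seen: Il4 fell from 7.45 ± 0.461 to 4.10 ± 0.691 (adjusted p = 0.00086) and Il6 from 9.70 ± 1.31 to 3.63 ± 0.206 (adjusted p = 5.4e-05). Il3ra, the alpha chain of the interleukin-3 receptor, did not pass the test, with 24.2 ± 2.34 against 21.4 ± 0.906 (adjusted p = 0.084), its libraries overlapped, and without WT replicate 2 it was called lower.

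The subunits of the IgE receptor were far apart in level. Ms4a2 (chr19:11615523-11623719, minus strand) had values of 71.2, 77.9 and 75 in the WT libraries, against 21.0, 22.9 and 24.9 in those labelled Sdc1-/-, and was 3.25-fold lower (log2 fold change -1.66, SE 0.0652, adjusted p = 3.1e-06). Of its 31-base words 4.03% are shared with other genes, mostly Ms4a4b. Fcer1a (chr1:173221284-173227214, minus strand) had values of 2.81, 2.33 and 2.38 against 0.5, 0.477 and 0.556. Its log2 fold change of -1.21 (SE 0.0839, adjusted p = 2.8e-05) understates a 4.91-fold difference of the means, because the pseudocount of 1 is larger than the level reached in the libraries labelled Sdc1-/-, and with a pseudocount of 0.1 it was -2.09. Fcer1g, the gamma chain that other Fc receptors of myeloid cells also use, was the most abundant subunit, at 245 ± 5.04 against 134 ± 3.69 (SD, n = 3 each; adjusted p = 2.6e-06).

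Ms4a2 exceeded Fcer1a by 25.3 to 33.4 times in the libraries labelled WT and by 42.0 to 48.0 times in those labelled Sdc1-/-, so the IgE-binding chain was the scarce subunit in every library. The ratio of Ms4a2 to Fcer1g was 0.285 to 0.325 against 0.152 to 0.189. The receptor-specific chains were therefore further down than the shared chain, and neither set of ratios overlapped between groups.

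Signalling genes downstream of the receptor followed. Of 22 genes listed for the pathway, all were tested, 14 were lower, 4 were higher and 4 were not called, with a median of -0.27. Without the 2 members, 12 of 20 were lower, 4 were higher and the median was -0.21. The shares over all genes tested were 31.3% lower and 29.3% higher. Gab2, an adaptor that recruits PI3-kinase, fell from 20.3 ± 0.311 to 10.6 ± 0.125 (adjusted p = 3.5e-06). The abundant adaptors moved less: Lat2 fell from 136 ± 2.78 to 114 ± 2.57 (adjusted p = 0.0004), while the calls of Grb2 (157 ± 6.21 against 141 ± 3.21, adjusted p = 0.0086) and Lat (129 ± 4.44 against 117 ± 2.71, adjusted p = 0.016) were lost under both other scalings, that of Lat also without WT replicate 1 and without Sdc1-/- replicate 2. The receptor-proximal kinases, named for their place in the pathway after their values were seen, differed among themselves. Lyn fell from 54.8 ± 0.988 to 33.7 ± 0.213 (adjusted p = 4.6e-06), Fyn rose from 19.2 ± 2.34 to 29.5 ± 1.06 (adjusted p = 0.0007), and Syk, at 32.3 ± 0.310 against 30.7 ± 0.376, did not pass the test (adjusted p = 0.096).

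Hdc encodes histidine decarboxylase, the enzyme that makes histamine, and it is the member with the largest log2 fold change. Hdc (chr2:126593667-126619299, minus strand) stood at 214.5, 203.4 and 201.7 in the WT libraries, against 52.9, 53.4 and 58.3 in those labelled Sdc1-/-. It was 3.76-fold lower (log2 fold change -1.89, SE 0.0468, adjusted p = 7.3e-07), and only 27 of the 12155 genes tested had a lower log2 fold change. Its nearest counterpart among the mediator genes was Tph1, the first enzyme of serotonin synthesis outside the brain, which fell from 176 ± 7.22 to 49.0 ± 1.86 (SD, n = 3 each; adjusted p = 6.5e-07). The ratio of Hdc to Tph1 was 1.14 to 1.2 in the libraries labelled WT and 1.05 to 1.24 in those labelled Sdc1-/-, with overlapping ranges.

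Of 11 genes for histamine, serotonin and lipid mediators, 9 were tested, 7 were lower and 1 was higher, with a median of -0.44. Without the member Hdc, 6 of 8 were lower, 1 was higher and the median was -0.38. Over all genes tested, 31.3% were lower and 29.3% higher. Alox5ap, which presents arachidonic acid to 5-lipoxygenase, fell from 533 ± 23.1 to 270 ± 16.2 (adjusted p = 9.2e-06), and Hpgds, a prostaglandin D2 synthase, from 7.99 ± 0.715 to 3.45 ± 0.312 (adjusted p = 5.9e-05). Alox5 itself, at 291 ± 7.23 against 261 ± 17.4, was called lower (adjusted p = 0.033), a call lost under 6 of 14 alternatives, among them those without WT replicate 1 and without WT replicate 3. The higher gene was Slc18a2, the transporter that loads histamine and serotonin into granules, at 22.2 ± 1.89 against 30.8 ± 3.21 (adjusted p = 0.0034). As a result the ratio of Hdc to Slc18a2 went from 8.39 to 10.6 in the libraries labelled WT to 1.70 to 1.90 in those labelled Sdc1-/-, the widest change of the 8 gene pairs drawn. Hdc and Tph1 thus moved in the opposite direction to Slc18a2. Ddc, a later enzyme of serotonin synthesis, is named after its values were seen. It was at the floor, at 0.204 ± 0.0621 against 0.200 ± 0.0353, its libraries overlapped, and it was not tested.

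Prg2 encodes the proform of major basic protein and was the most abundant member, above 99.4% of the genes in the table in the WT mean. Prg2 (chr2:84980461-84983632, plus strand) had values of 670.3, 640.7 and 654.7 in the WT libraries, against 306.5, 301.4 and 301.8 in those labelled Sdc1-/-. It was 2.16-fold lower (log2 fold change -1.11, SE 0.0286, adjusted p = 8.6e-07), and the libraries of each group lay close together. Epx (chr11:87864000-87875536, minus strand), eosinophil peroxidase, had values of 28.2, 25.6 and 26.8 against 14.2, 14.0 and 13.3, a 1.95-fold difference (log2 fold change -0.91, SE 0.0484, adjusted p = 9.2e-06). Prg2 was 23.7 to 25.0 times as high as Epx in the libraries labelled WT and 21.5 to 22.7 times in those labelled Sdc1-/-, so their proportion changed little although the ranges did not overlap.

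Il5ra (chr6:106710357-106749037, minus strand), the receptor chain through which interleukin-5 drives eosinophil growth, was at the floor. It had values of 0.181, 0.233 and 0.202 in the WT libraries, against 0.131, 0.122 and 0.107 in those labelled Sdc1-/-, which did not overlap. An exact two-sided permutation test gave p = 0.1, the smallest that 3 against 3 libraries allow. With no minimum mean its log2 fold change was -0.11 (adjusted p = 0.015), but levels this low may rest on few reads, and the depth is unknown. Ccr3, the eotaxin receptor of mature eosinophils, was low as well, at 0.857 ± 0.0638 against 0.318 ± 0.0445 (SD, n = 3 each), and is named after its values were seen. Siglecf, another surface receptor of eosinophils, also named after its values were seen, was not low, at 27.3 ± 1.57 against 21.4 ± 0.759 (adjusted p = 0.0012). The paper's antibody screen found its protein preferentially on bcCML cells positive for a reporter of the stem cell gene Msi2. The RNA of Siglecf therefore does not by itself name eosinophils here. Epx had means of 26.9 and 13.8, so its level was near that of Siglecf only in the libraries labelled WT.

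Of the 13 eosinophil genes listed, 10 were tested and 10 were lower, with a median of -0.91. Without the members 8 of 8 were lower, against 31.3% of all genes tested. The eosinophil ribonuclease genes Ear6 and Ear2 had the largest falls of the list, Ear6 from 88.0 ± 1.77 to 24.7 ± 1.16 (adjusted p = 6.3e-07) and Ear2 from 50.7 ± 0.582 to 15.2 ± 0.934 (adjusted p = 9.9e-07). Of the 31-base words of Ear2 60.5% are shared with other genes, mostly Ear1, so the split of reads between those copies is uncertain, while 8.48% of the words of Ear6 are shared. Csf2rb, the chain shared by the receptors for interleukin-3, interleukin-5 and GM-CSF, fell from 37.7 ± 1.45 to 20.2 ± 0.583 (adjusted p = 6.8e-06), and its near copy Csf2rb2 from 9.86 ± 0.454 to 3.82 ± 0.108 (adjusted p = 4.8e-06), again with words in common.

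**Figure D2:**
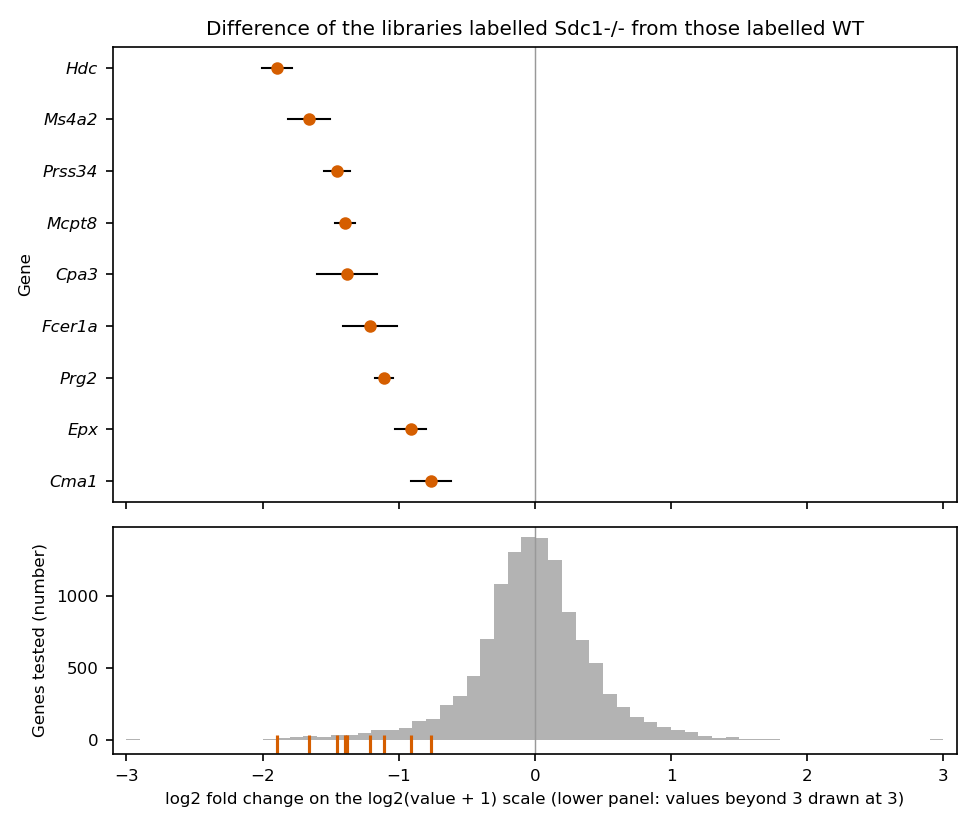
Upper panel, log2 fold change (libraries labelled Sdc1-/- minus WT) of the 9 tested genes with its 95% confidence interval from limma. Lower panel, the same quantity for all 12155 genes tested as a histogram, with the 9 genes as orange ticks. The 9 genes run from -1.89 for Hdc to -0.77 for Cma1, on the left side of a distribution whose median is -0.01.

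**Figure D3:**
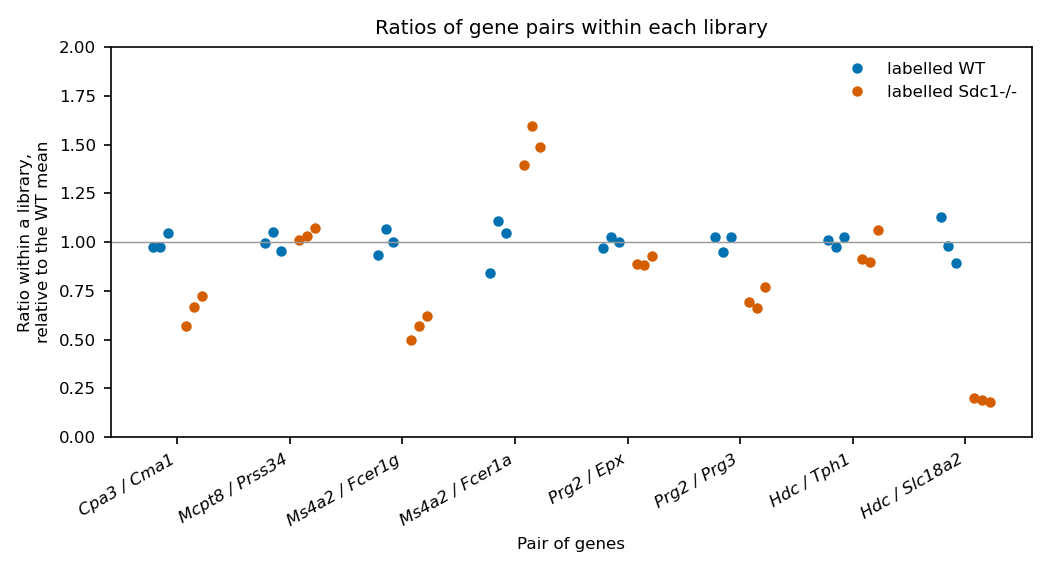
Ratio of the signal of 2 genes within each library, divided by the mean ratio of the libraries labelled WT. Points are libraries. The pairs Mcpt8 / Prss34 and Hdc / Tph1 overlap between groups, whereas Hdc / Slc18a2 falls from a mean of 9.38 to 1.79 and Ms4a2 / Fcer1a rises from 30.1 to 44.9. The pairs were chosen with the values known.

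Of 11 genes for serglycin, its glycosaminoglycan chains and granule release, 6 were lower, 2 were higher and 3 were not called, with a median of -0.16. Of all genes tested, 31.3% were lower and 29.3% higher. Srgn, the serglycin core protein, fell from 2089 ± 38.1 to 1331 ± 27.2 (adjusted p = 6.2e-06), and Ctsc, which activates granule proteases, from 95.8 ± 6.03 to 52.9 ± 2.01 (adjusted p = 1.8e-05). Cd63, a granule membrane protein, fell from 430 ± 10.4 to 314 ± 8.43 (adjusted p = 3.7e-05), and Stx3, a protein of granule fusion, from 7.58 ± 0.424 to 2.69 ± 0.259 (adjusted p = 1.5e-05). Vamp8, at 227 ± 5.01 against 207 ± 4.86, was called lower (adjusted p = 0.01), a call lost under both other scalings.

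Among the cytokine receptors of mast cells and basophils, 10 of 13 tested were lower and 2 were higher, with a median of -0.45. The shares of all genes tested were 31.3% and 29.3%. Il4ra fell from 24.1 ± 0.373 to 9.46 ± 0.517 (adjusted p = 2.6e-06), and Il1rl1, the interleukin-33 receptor, from 54.7 ± 4.83 to 30 ± 2.19 (adjusted p = 0.00011). Ifngr1 fell from 131 ± 5.89 to 87.1 ± 2.61 (adjusted p = 3.6e-05), whereas Il2rg rose from 80.6 ± 3.48 to 92.8 ± 0.711 (adjusted p = 0.003). Kit, the stem cell factor receptor on which mast cells depend, had 12.8 ± 0.801 against 14.7 ± 0.258 and was called higher (adjusted p = 0.018), a call lost without 3 of the 6 libraries in turn (WT replicate 1, WT replicate 3 and Sdc1-/- replicate 2). Kit is named after its values were seen.

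Of the surface proteins used to sort mast cell and basophil progenitors, 8 of 11 tested were lower and 1 was higher, with a median of -0.33. Over all genes tested these shares were 31.3% and 29.3%. The low-affinity Fc receptors fell, Fcgr3 from 92.3 ± 1.67 to 39.7 ± 0.0914 (adjusted p = 7e-07) and Fcgr2b from 31.2 ± 0.251 to 12.0 ± 0.790 (adjusted p = 2.8e-06). Itgb7, the integrin chain that marks these progenitors in mouse, fell from 101 ± 6.96 to 61.0 ± 2.05 (adjusted p = 4.2e-05). Its protein, too, was found by the paper's screen preferentially on the Msi2-reporter-positive bcCML cells, so its RNA does not by itself name these progenitors. Itga2b fell from 179 ± 8.47 to 149 ± 9.02 (adjusted p = 0.0046), a call lost when each library was scaled to a sum of 1000000, and Cd9, at 144 ± 5.57 against 153 ± 1.15, did not pass the test (adjusted p = 0.068) but was called higher under both other scalings.

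Of 20 transcription factors of these lineages tested, 9 were lower, 7 were higher and 4 were not called, with a median of 0.002, where 31.3% of all genes tested were lower and 29.3% higher. Mitf, 1 of the lower factors, passed the minimum mean only through the libraries labelled WT. Gata2 stood at 161 ± 11.7 against 166 ± 5.01 (SD, n = 3 each; log2 fold change 0.05, SE 0.0561, adjusted p = 0.44), and Zfpm1, a cofactor of GATA factors, at 127 ± 9.01 against 131 ± 5.33 (adjusted p = 0.5). Neither passed the test, and with each library scaled to a sum of 1000000 both were called higher. Gata1, named after its values were seen, stood at 78.4 ± 1.80 against 82.6 ± 0.738 (adjusted p = 0.07) and was called higher under both other scalings. Under no setting was one of these 3 lower. The ratio of Hdc to Gata2 went from a mean of 1.29 to 0.330, with no overlap between groups. That of Mcpt8 went from 0.905 to 0.327 and that of Prg2 from 4.09 to 1.82, also without overlap. As Gata2 itself was nearly level, these ratios restate the falls of the members. Any part of GATA factors in those falls was not tested.

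Of the factors named by the size of their change, Cebpa, a factor of the granulocytic lineages, fell from 11.7 ± 0.492 to 5.76 ± 0.220 (adjusted p = 1.1e-05), Cebpe, which eosinophils and neutrophils need to form granules, from 28.7 ± 2.50 to 13.5 ± 0.434 (adjusted p = 2e-05), and Id2 from 38.3 ± 1.45 to 14.0 ± 0.548 (adjusted p = 1.6e-06). Xbp1, a factor of secretory cells, fell from 168 ± 2.24 to 140 ± 3.06 (adjusted p = 0.00025). Rises were seen in Lmo2, from 133 ± 2.49 to 192 ± 3.46 (adjusted p = 1.1e-05), and in Meis1, a partner of Hoxa9, from 13.1 ± 0.353 to 28.6 ± 1.08 (adjusted p = 3.2e-06).

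**Figure D4:**
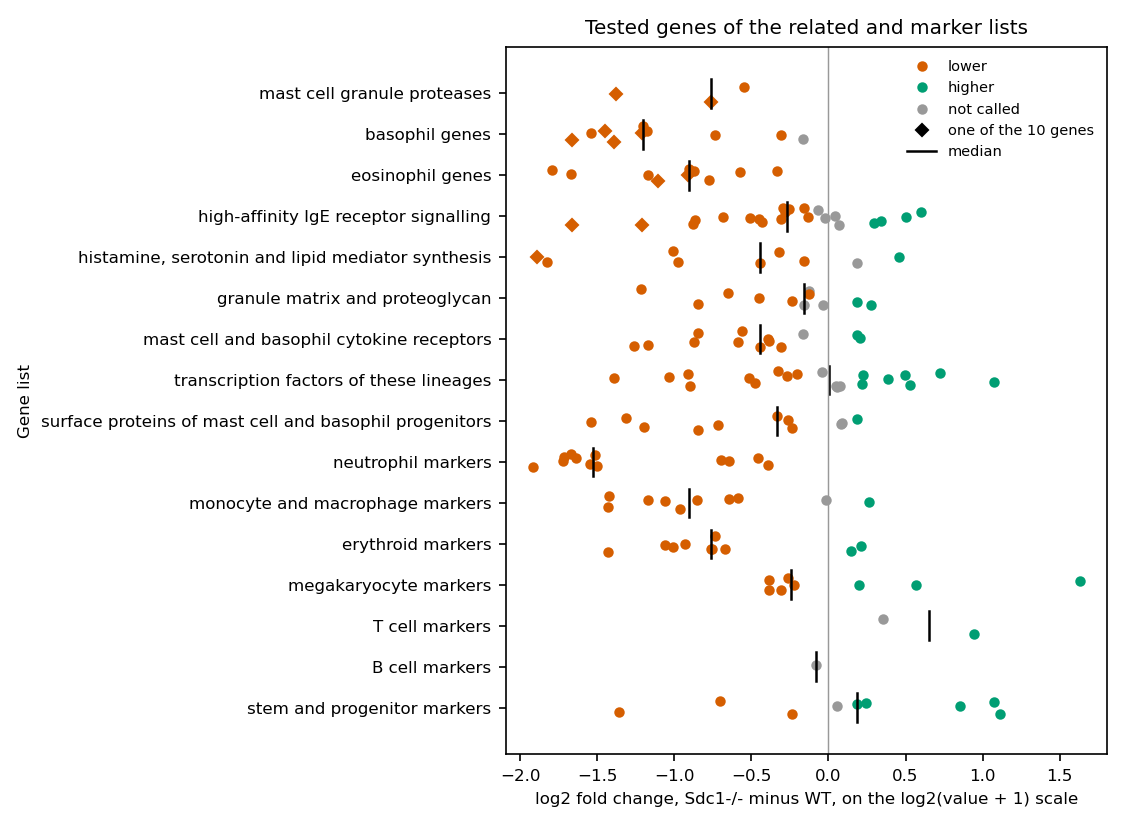
Log2 fold change (libraries labelled Sdc1-/- minus WT) of the tested genes of each list, 1 point per gene, coloured by call. Diamonds are members and black lines are list medians. The basophil list has a median of -1.21 and the transcription factor list of 0.002, and the neutrophil list lies lowest at -1.53.

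Markers of neutrophils, monocytes and erythroid cells mostly moved with the members, and the other marker lists did not as a whole. Of all genes tested 31.3% were lower and 29.3% higher, beside which the counts below are to be read. All 12 neutrophil markers were lower, with a median of -1.53 and a summed signal of 13396 to 14291 in the libraries labelled WT against 5128 to 5253 in those labelled Sdc1-/-, while the members summed to 1305 to 1345 against 527 to 533. Of the monocyte and macrophage markers 8 of 10 tested were lower and 1 was higher, with sums of 575 to 595 against 260 to 269, and Csf1r and C1qb among the lower ones passed the minimum mean only through the libraries labelled WT. Of the erythroid markers 8 of 10 were lower and 2 were higher, with sums of 10480 to 11158 against 5850 to 6240, and of the megakaryocyte markers 5 of 8 tested were lower and 3 were higher, with sums of 508 to 537 against 524 to 538. The T cell markers summed to 7.83 to 9.74 against 16.1 to 17.0, with 1 of 2 tested higher and Cd3e, Cd3g, Cd4 and Cd8a at means under 0.1, and the B cell markers to 2.14 to 2.79 against 1.97 to 2.61, with 0 of 1 tested called. Of the stem and progenitor markers 3 of 9 tested were lower and 5 were higher. The part of other cells in the members' difference was not tested.

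The genes next to the members were looked at last, in a window of 60 kb that was chosen with the values known. It held 43 protein-coding neighbours, of which 19 reached the minimum mean, 11 were lower, 3 were higher and 5 were not called, where 31.3% of all genes tested were lower. Of the 11, Ms4a6d and Oosp1 passed the minimum mean only through the libraries labelled WT, so no weight is put on that count. Some lower neighbours were relatives of the member. Others were not, namely Baiap3 and Tsr3 beside Prss34, Trnt1 and Crbn beside Il5ra, and Oosp1 beside Ms4a2. Of these, named after their values were seen, Baiap3 fell from 3.44 to 1.21 (adjusted p = 0.00105) and Crbn from 22.8 to 15.2 (adjusted p = 0.00149). Beside Mcpt8 in the mast cell protease cluster, Ctsg, a protease of neutrophils and mast cells, fell from 285 ± 7.42 to 182 ± 8.34 (SD, n = 3 each; adjusted p = 2.1e-05), and the ratio of Mcpt8 to Ctsg was 0.498 to 0.529 in the libraries labelled WT and 0.291 to 0.311 in those labelled Sdc1-/-. Mcpt4, Mcpt9, Gzmd and Gzme in the same stretch had no value above 0.27.

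Beside Ms4a2, its relative Ms4a3, a gene of granulocyte and monocyte precursors, fell from 445 ± 11.7 to 272 ± 7.5 (adjusted p = 6.5e-06). Next to Prg2, Prg3, which encodes a homologue of major basic protein, fell from 22 ± 0.623 to 14.4 ± 1.08 (adjusted p = 0.00017), and the ratio of Prg2 to Prg3 was 28.3 to 30.6 against 19.8 to 22.9. Mpo, the peroxidase gene of neutrophils that lies in the window of Epx, fell from 322 ± 11.1 to 245 ± 4.18 (adjusted p = 8.4e-05). In each of these 4 pairs of relatives, picked with the values known, the member had the larger fall on the log2 scale.

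Not every tested neighbour was called lower. Gabpb1, the 1 tested neighbour of Hdc, stood at 22 ± 0.391 against 24.9 ± 1.32 and was called higher (adjusted p = 0.015), a call lost without Sdc1-/- replicate 2 and without Sdc1-/- replicate 3. Slc43a3 beside Prg2 did not pass the test, at 57.1 ± 3.01 against 53.4 ± 0.927 (adjusted p = 0.098), although it was called lower without WT replicate 1.

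**Figure D5:**
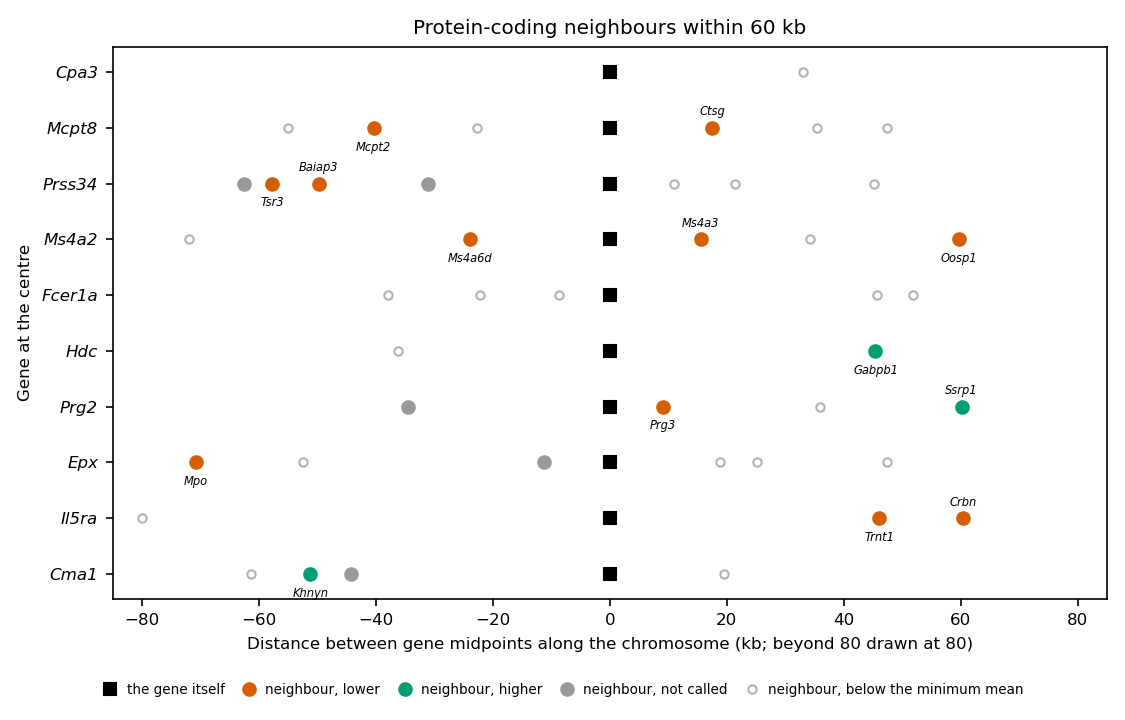
Protein-coding neighbours of each gene within 60 kb, by the distance between gene midpoints in kb. Filled points are tested neighbours coloured by call, with names for those called, open points are neighbours below the minimum mean, and the black square is the gene itself. Of 19 tested neighbours 11 were lower, among them Ctsg, Ms4a3, Prg3 and Mpo, and Fcer1a and Cpa3 have no tested neighbour.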

How the data were processed

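RNA was sequenced from 6 libraries of Lin- cells, 3 per group, as stranded 75-base single reads from 150 ng of RNA each. The authors ran kallisto, whose version and transcriptome are not given in the sources used here, summed transcripts to genes and deposited 1 value per gene and library. The submitters' processing notes name mm10 and sleuth 0.30.0. The deposited values are treated as signal, because library sums of 944973 to 1058263 show TPM that the authors rescaled. The sums were 1048875 to 1058263 in the libraries labelled WT and 944973 to 951814 in those labelled Sdc1-/-, so scale and group go together. The deposited sleuth results (effect sizes, p-values) were not used.

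From these values limma 3.58.1 (R 4.3.3) was fitted to log2(signal + 1) wherever a gene's mean reached 1 (12155 genes), with no covariate beside group, with a trend in eBayes, and with Benjamini-Hochberg adjustment at 0.05. The design had assumed TPM. The procedure was tested on simulated data. Symbols, positions and 31-base words came from GENCODE M21 (GRCm38), which held 35454 of 36083 identifiers, and promoters from RefSeq. The other steps used Python 3.11.15. The members and lists were chosen with earlier results of these data known. Named were the 10 members, Sdc1 and, per list, up to 4 genes of highest mean and up to 4 with the largest called change, beside genes said to be chosen after their values were seen. Alternatives changed pseudocount, minimum mean, scaling, variance trend, replicate block and libraries used.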

Additional observations from a re-analysis of the deposited data

How the results depend on the processing

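In all 125 fits of a member under the 14 alternatives the gene stayed lower and past the threshold, with log2 fold changes of -1.94 to -1.75 for Hdc, -1.72 to -1.52 for Ms4a2, -2.09 to -1.13 for Fcer1a and -0.83 to -0.63 for Cma1. Fcer1a was not tested at a minimum mean of 5, and with no minimum mean Il5ra was called lower as well, which made 10. The labels number the libraries 1 to 3 in both groups, but same-numbered libraries did not deviate together (correlations 0.151, -0.00828 and 0.0185). With the replicate block 9 members were called lower. Over all genes tested that fit called 3971 lower and 3653 higher. Scaling to a sum of 1000000 gave 2367 lower genes in all, 7 higher IgE receptor signalling genes, 2 higher mediator genes, 3 higher surface proteins, 2 higher T cell markers and 3 lower megakaryocyte markers. Higher surface proteins numbered 2 under quantile normalization and higher T cell markers 2 with the block. A minimum mean of 5 left 2 higher IgE receptor signalling genes and 4 lower monocyte markers, and no minimum mean gave 5 lower mast cell proteases, 1 higher erythroid marker and 1 higher granule matrix gene. Without the variance trend 1 erythroid marker was higher.

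Leaving out 1 library moved counts of higher genes by over 1.5 times in 6 lists, and other list counts by less. The T cell markers ranged from 1 to 2 (2 without WT replicate 3), the erythroid markers from 1 to 2 (1 without any library but WT replicate 3), and the granule matrix genes from 1 to 2 (1 without WT replicate 2, Sdc1-/- replicate 1 or Sdc1-/- replicate 2). Mediator genes ranged from 1 to 2 (2 without WT replicate 2), and cytokine receptors from 1 to 2 (1 without WT replicate 1, WT replicate 3 or Sdc1-/- replicate 2). Surface proteins ranged from 0 (without WT replicate 3 or Sdc1-/- replicate 2) to 2 (without Sdc1-/- replicate 1). The cause of these shifts was not tested. Read depth is unknown, so no counting error can be given for Il5ra, Fcer1a or other low genes.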

Other observations

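The stem and progenitor markers moved in both directions. Between the libraries labelled WT and those labelled Sdc1-/-, the signal of Sox4 rose from 0.534 ± 0.0363 to 2.33 ± 0.244 (SD, n = 3 each; limma, adjusted p = 4.1e-05), a gene that passed the minimum mean only through the libraries labelled Sdc1-/-, and Meis1 rose from 13.1 ± 0.353 to 28.6 ± 1.08 (adjusted p = 3.2e-06). Erg rose from 11.2 ± 0.372 to 21.0 ± 1.15 (adjusted p = 1.5e-05), whereas Ly6a, which encodes Sca-1, fell from 8.82 ± 1.09 to 2.82 ± 0.225 (adjusted p = 2.7e-05). Vwf, a gene of megakaryocytes and endothelium, rose from 4.14 ± 0.658 to 14.8 ± 0.658 (adjusted p = 1.2e-05), while Gp9, a platelet receptor subunit, fell from 36.3 ± 2.15 to 29.1 ± 1.07 (adjusted p = 0.002). Gp9 is named after its values were seen.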
